A study of Mus musculus with 8 samples.

Results

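Acpp, the other enzymes that handle nucleotides outside the cell, and the receptors for adenosine and ATP were examined in mouse bone marrow-derived macrophages (BMDM) treated with sphingosine, So(d18:1). The set held 10 genes listed by name: Acpp, Nt5e, Entpd1, Enpp1 and Ada among the enzymes, Adora2a, Adora2b and Adora3 among the adenosine receptors, and P2rx7 and P2rx4 among the ATP receptors. All 10 were found among the 55357 genes of the count table, of which 52081 had a symbol. All 10 also passed the filter on low counts, which left 14514 genes for testing. The genes were chosen on measured values: the difference between the same 8 libraries was known when the list was drawn up, and Acpp was put on it for the size of its difference. Their values are therefore given as a description, with no p-value. Where the text says that one of them was called or did not pass a threshold, this too is description and not a test.

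The 8 libraries were poly(A) RNA-seq libraries, 4 per group, of cells grown from femur and tibia marrow of wild-type C57BL/6J mice in M-CSF, the growth factor of macrophages, at 10 ng/ml for 5 to 6 days. Treated cells received 2 μM So(d18:1) in methanol for 6 h, and control cells received methanol for 6 h. Sphingosine is the long-chain base of sphingolipids, and the study asked how it changes gene expression in macrophages. According to the study's text the cells were also given an inflammatory stimulus, which the labels of the libraries do not name. The labels do not say whether the 4 libraries of a group came from separate mice or cultures, so intervals and p-values measure the spread between these libraries.

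ATP leaves stressed or activated cells and acts on P2X channels and P2Y receptors of its neighbours. Ectoenzymes remove it in steps. Entpd1 (CD39) takes ATP and ADP to AMP, Enpp1 cleaves ATP to AMP and pyrophosphate, and Nt5e (CD73) takes AMP to adenosine. Acpp encodes prostatic acid phosphatase, whose transmembrane form also dephosphorylates AMP to adenosine and which can act on lysophosphatidic acid (LPA). Adenosine acts on G protein-coupled receptors, of which those encoded by Adora2a and Adora2b raise cAMP, and Ada converts it to inosine. In macrophages this pathway is known for turning an ATP signal, which through P2X7 feeds the inflammasome, into an adenosine signal that dampens inflammatory cytokines.

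Total counts ran from 17748397 to 26088609 per library, with scaling factors from 0.989 to 1.01. Replicates of a group differed by more than counting noise, with a chi-square per gene from 2.75 to 11.9 over 12 pairs. All 7 macrophage markers examined passed the filter, with a summed level from 30123 to 32413 CPM (counts per 1000000 counts of the scaled library) in control and from 26006 to 30868 CPM in So(d18:1) libraries. Of these, Itgam was called higher (log2 difference 0.18) and Mertk (-0.38) and Cd68 (-0.22) lower. The lists for other cells summed to less. The 8 neutrophil markers summed to 1682 to 2325 CPM in control and 1325 to 1506 CPM in So(d18:1) libraries. Of these markers, 4 (S100a8, S100a9, Mpo and Elane) were called lower, where 5.07% of all genes tested were called lower. The megakaryocyte list summed to 224 to 253 CPM against 353 to 425 CPM, with Pf4 called higher (log2 difference 0.76) and the other 3 of its genes uncalled and negative (Itga2b -0.61, Gp9 -0.71, Ppbp -0.11). T cell, B cell, dendritic cell, mast cell, stromal and erythroid lists each summed to under 26 CPM in every library, Cd4 and Pax5 were called lower, and the mast cell marker Tpsb2 was at 0 in all 8. The part of other cells in the results below was not tested. In bulk RNA, fewer cells of a type and less RNA per cell cannot be told apart.

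The promoter windows of the AMP-dephosphorylating enzymes and of Enpp1 are shown because Acpp and Enpp1 were the genes of the set whose libraries separated by group, whereas Nt5e, which shares its reaction with Acpp, did not separate. Sequences are from RefSeq on build GRCm38.p6, 250 bases before to 50 bases after an annotated start, written 5′ to 3′ on the strand of the gene. Acpp and Enpp1 lie on the minus strand and Nt5e on the plus strand. Capitals mark a match, on either strand, to ACGTG or GCGTG (cores bound by basic helix-loop-helix PAS factors) or to TGACG (the core of the cAMP response element). TGACG and ACGTG can overlap, as they do in Enpp1.
Acpp, chr9:104337673-104337972: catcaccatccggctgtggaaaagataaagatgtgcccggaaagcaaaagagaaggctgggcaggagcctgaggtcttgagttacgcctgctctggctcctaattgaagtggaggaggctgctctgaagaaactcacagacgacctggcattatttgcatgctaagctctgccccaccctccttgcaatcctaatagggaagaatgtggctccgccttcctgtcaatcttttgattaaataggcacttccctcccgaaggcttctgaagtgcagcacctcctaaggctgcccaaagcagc
Nt5e, chr9:88327359-88327658: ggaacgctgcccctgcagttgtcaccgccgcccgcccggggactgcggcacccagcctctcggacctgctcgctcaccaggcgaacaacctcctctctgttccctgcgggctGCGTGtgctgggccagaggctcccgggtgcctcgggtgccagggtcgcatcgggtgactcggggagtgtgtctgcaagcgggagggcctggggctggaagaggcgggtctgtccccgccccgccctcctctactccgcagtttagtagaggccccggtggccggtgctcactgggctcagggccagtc
Enpp1, chr10:24712110-24712409: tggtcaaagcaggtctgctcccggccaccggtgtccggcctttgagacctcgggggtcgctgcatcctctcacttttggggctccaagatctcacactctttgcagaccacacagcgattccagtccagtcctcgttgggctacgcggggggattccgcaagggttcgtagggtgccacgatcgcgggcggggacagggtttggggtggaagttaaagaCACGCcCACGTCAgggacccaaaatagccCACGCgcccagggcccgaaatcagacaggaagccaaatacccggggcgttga

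The Acpp window held none of the 3 motifs and had a GC content of 52.0%, near the median of 52.7% over all windows. The Enpp1 window had a GC content of 61.7% and held 1 ACGTG, 2 GCGTG and 1 TGACG, all beginning within the 31 bases before the start. The Nt5e window had a GC content of 71.0% and held 1 GCGTG. CG dinucleotides numbered 6 in the Acpp window, 22 in that of Enpp1 and 23 in that of Nt5e. Over the 11 windows that matched 9 of the genes, ACGTG stood in 1, GCGTG in 5 and TGACG in 4. Over all 32851 windows of the table, 19.6% held ACGTG, 32.4% held GCGTG and 20.8% held TGACG. A match is a description of the letters in this window.

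Acpp (ENSMUSG00000032561, chromosome 9, 104288251 to 104337748 on the minus strand, GRCm38) had 12.6, 11.3, 14.2 and 11.8 CPM in the 4 control libraries. It had 45.0, 46.8, 55.0 and 47.5 CPM in the 4 So(d18:1) libraries. The lowest treated library stood above every control library, and the groups were far apart relative to the spread within each. The means were 12.5 ± 1.25 CPM in control and 48.6 ± 4.40 CPM with So(d18:1) (SD, n = 4 each). The difference was 1.96 on the log2 scale (SE 0.079, 95% interval 1.80 to 2.13), or 3.90-fold. Behind these levels were 261 to 336 raw counts in control and 803 to 1225 in treated libraries. The log2 fold change ranked 9 from the top of the 14514 genes tested. Acpp was put on the list for the size of this difference, so its rank and the gap between the groups restate that choice.

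**Figure D1:**
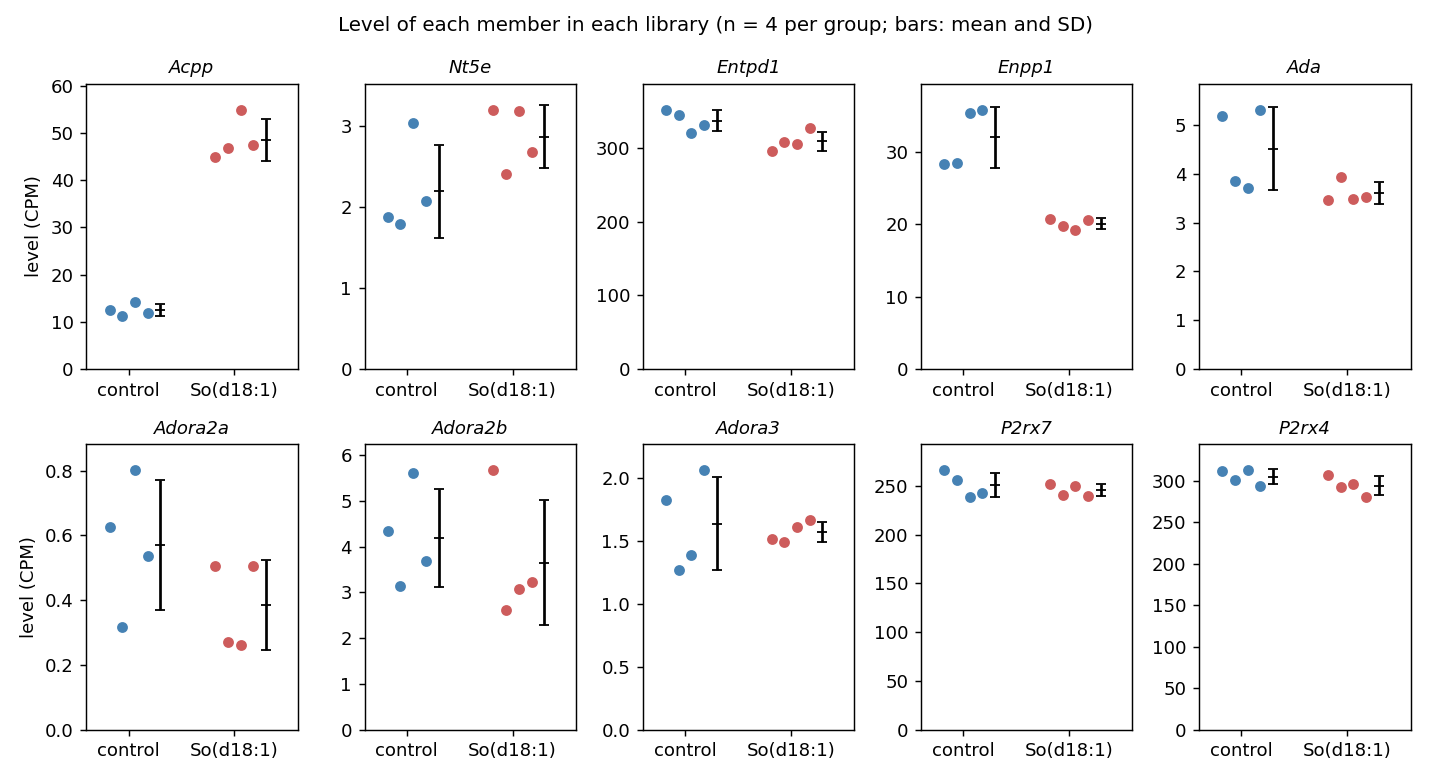
Level in CPM (y axis, from 0, 1 scale per gene) of each of the 10 genes in the 4 control and 4 So(d18:1) libraries. Points are libraries and the bars beside them give the mean and SD. Acpp lay between 11.3 and 14.2 CPM in control and between 45.0 and 55.0 CPM in treated libraries, Enpp1 was lower in every treated library, and the points of the other 8 genes overlapped.

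Nt5e, the AMP-dephosphorylating ectoenzyme best known in immune cells, was low, with a control level per length above that of 6.74% of genes tested. It had 1.88, 1.79, 3.04 and 2.06 CPM in control libraries and 3.20, 2.40, 3.18 and 2.68 CPM in treated libraries, from 39 to 72 counts each. Control replicate 3 lay within the treated range, so the groups overlapped. The log2 difference was 0.37 (SE 0.20, 95% interval -0.035 to 0.78). Per length, Acpp stood at 6.86 ± 1.04 times the Nt5e level in control libraries and at 20.1 ± 2.65 times with So(d18:1) (SD, n = 4 each). The ratio ran from 5.48 to 7.85 in control and from 16.5 to 22.9 in treated libraries, and both genes entered it with higher means in the treated group.

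Entpd1, which supplies AMP by removing ATP and ADP, was the most abundant of the enzymes. Its levels were 352, 345, 321 and 331 CPM in control libraries and 296, 308, 306 and 327 CPM in treated libraries. Treated replicate 4 lay above control replicate 3, so the groups overlapped. The log2 difference was -0.12 (SE 0.045, 95% interval -0.22 to -0.031). The interval of a single gene is not adjusted for the number of genes, and over all 14514 genes Entpd1 did not pass, although it did without treated replicate 4, at -0.15. Per length, Entpd1 stood at 35.9 ± 4.37 times Acpp in control and at 8.41 ± 0.762 times with So(d18:1) (SD, n = 4 each).

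Enpp1, the pyrophosphate-producing ectoenzyme (chromosome 10, 24637914 to 24712159 on the minus strand), was lower with So(d18:1). It had 28.4, 28.5, 35.4 and 35.9 CPM in control libraries and 20.7, 19.7, 19.2 and 20.7 CPM in treated libraries. All treated libraries stood below all control libraries, and the control libraries spread more widely (32.0 ± 4.16 against 20.1 ± 0.749 CPM, SD, n = 4 each). The treated mean was 62.7% of the control mean, a log2 difference of -0.67 (SE 0.081, 95% interval -0.84 to -0.50). Acpp was at 0.549 ± 0.0658 times the Enpp1 level per length in control and at 3.39 ± 0.423 times in treated libraries, so the order of these genes was opposite in the groups.

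Ada, which removes adenosine, had 5.20, 3.86, 3.71 and 5.32 CPM in control libraries and 3.48, 3.94, 3.49 and 3.53 CPM in treated libraries. Control replicates 1 and 4 were higher than the rest, and the other control libraries overlapped with the treated ones. The log2 difference was -0.32 (SE 0.15, 95% interval -0.64 to -0.0010), and Ada did not pass over all genes.

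The adenosine receptors were low. Adora2a, which encodes a cAMP-raising receptor of high adenosine affinity, had 0.625, 0.318, 0.801 and 0.537 CPM in control and 0.505, 0.271, 0.260 and 0.504 CPM in treated libraries. Only 8 to 19 raw counts stood behind a control value and 5 to 13 behind a treated one, and the interval of its log2 difference (-0.54, SE 0.39) ran from -1.36 to 0.28. At this depth the interval held both no difference and a fall of more than 1 log2 unit. Adora2b, its relative of lower adenosine affinity, had 4.33, 3.15, 5.61 and 3.67 CPM in control and 5.66, 2.62, 3.07 and 3.22 CPM in treated libraries. Treated replicate 1 was the highest of all 8, and the log2 difference of -0.22 (SE 0.24) had an interval from -0.72 to 0.29. Adora3, the inhibitory A3 receptor, had 1.83, 1.27, 1.39 and 2.06 CPM against 1.51, 1.49, 1.61 and 1.67 CPM, with a log2 difference of -0.053 (SE 0.22, 95% interval -0.51 to 0.41). The treated libraries lay inside the control range. An exon of Adora3 overlaps Tmigd3 on the same strand and 19.8% of its 50-base words occur in another gene, so its counts are uncertain.

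The ATP-gated channels were abundant and differed little. P2rx7, the channel that feeds the inflammasome, had 266, 256, 239 and 242 CPM in control and 252, 241, 250 and 240 CPM in treated libraries. Its log2 difference was -0.030 (SE 0.044, 95% interval -0.12 to 0.061). P2rx4, a channel of higher ATP affinity, had 311, 301, 312 and 293 CPM against 307, 292, 296 and 280 CPM, a log2 difference of -0.052 (SE 0.043, 95% interval -0.14 to 0.037). The groups overlapped for both, and both intervals stayed within 0.14 of 0 on the log2 scale. The genes are neighbours on chromosome 5, 16111 bases apart. Per length P2rx4 stood at 1.03 ± 0.0539 times P2rx7 in control and 1.02 ± 0.0212 times in treated libraries (SD, n = 4 each).

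**Figure D2:**
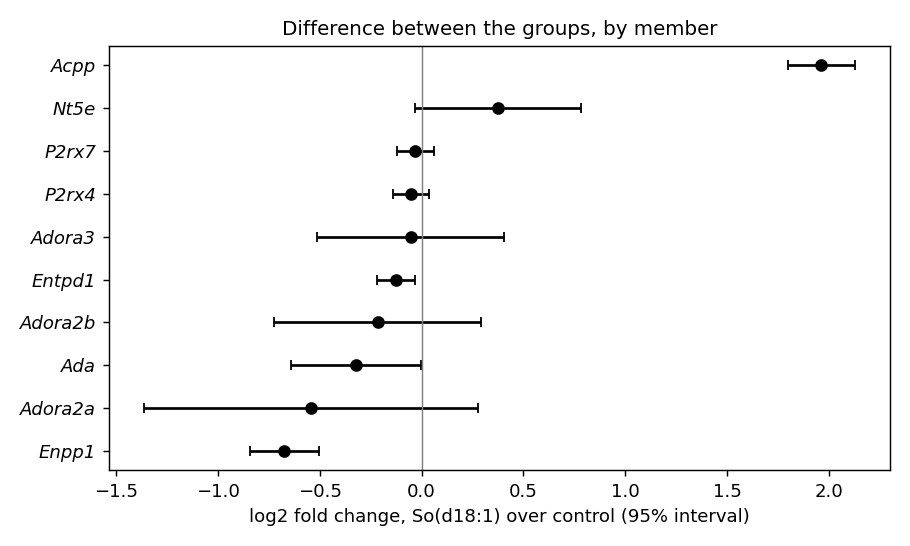
Log2 fold change of So(d18:1) over control (x axis) for each of the 10 genes, with 95% intervals from the edgeR fit over all 14514 genes. Acpp stood alone at 1.96 and Enpp1 lay at -0.67, while the intervals of Nt5e and of all receptors held 0. The low genes, Adora2a above all, had the widest intervals.

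Of the 10 genes, 2 had a positive and 8 a negative log2 difference, with a median of -0.089 against 0.0036 over all 14514 genes. At an adjusted p under 0.05, 2 were called, Acpp higher and Enpp1 lower, where 8.94% of all genes tested were called, 3.87% higher and 5.07% lower. The same 2 passed the study's cut-off of an unadjusted p under 0.05 with at least 1.5-fold, which 3.89% of all genes passed. The same 2 had levels that did not overlap between the groups, as 15.0% of all genes did. Since the set was chosen on this contrast, nothing is read from these shares.

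Per length (CPM per kb of exon, with the gene lengths of the deposited table), the control libraries were led by Entpd1 at 60.5, P2rx4 at 43.4 and P2rx7 at 42.0 CPM per kb. These exceeded 95.5%, 93.2% and 92.9% of all genes tested. Enpp1 followed at 3.12, Adora2b at 2.27, Ada at 2.26 and Acpp at 1.70 CPM per kb, the last above 29.4% of genes. Adora3 at 0.440, Nt5e at 0.255 and Adora2a at 0.186 CPM per kb closed the order. Between neighbours in that order, the control libraries did not overlap only for Entpd1 over P2rx4, P2rx7 over Enpp1 and Acpp over Adora3. With So(d18:1), Acpp stood in place 4 at 6.63 CPM per kb, above Adora2b at 1.98, Enpp1 at 1.96 and Ada at 1.80 CPM per kb, and its 4 libraries overlapped with none of theirs. The order of the most and the least abundant 3 was the same in both groups.

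**Figure D3:**
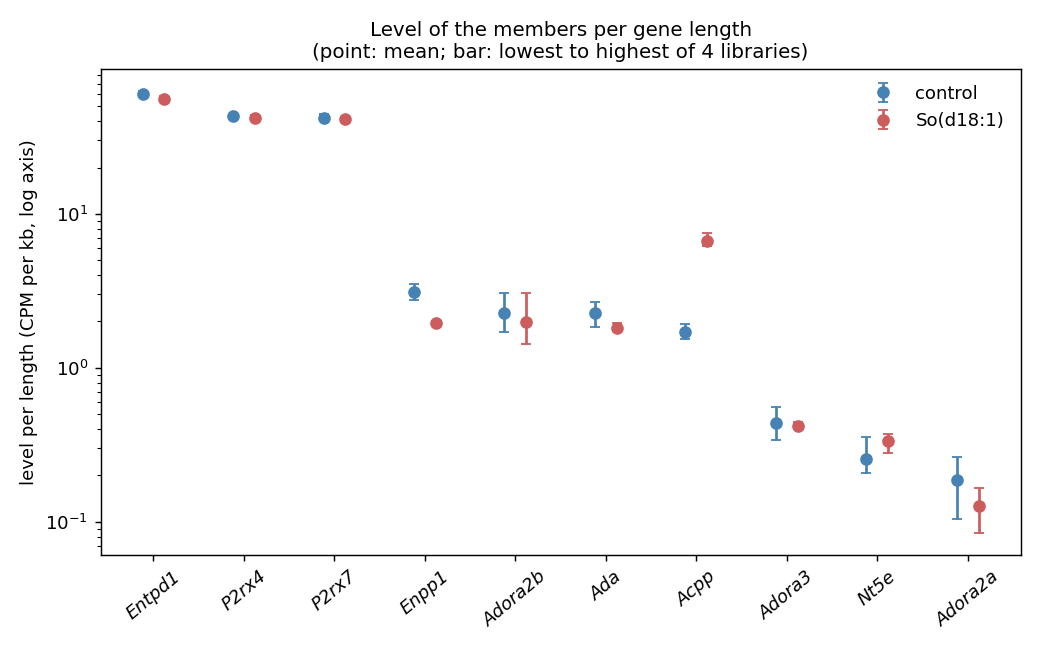
Level per length in CPM per kb (y axis, log scale) of the 10 genes in control and So(d18:1) libraries, ordered by the control mean. Points are means and bars run from the lowest to the highest of 4 libraries. Acpp went from place 7 in control, below Ada, to place 4 with So(d18:1).

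The rest of the pathway was examined in 142 further genes, of which 141 were listed and 101 passed the filter. Of these, 13 were called higher and 9 lower (edgeR quasi-likelihood test, Benjamini-Hochberg adjusted over all genes), 21.8% of those tested where 8.94% of all genes were called (3.87% higher, 5.07% lower). The share depends on the rule: at the study's cut-off (unadjusted p under 0.05 with at least 1.5-fold), 4 of the 101 passed, where 3.89% of all genes did. The median log2 difference of the 101 was 0.0005. The lists too were drawn up with results of these libraries known, and no list was tested as a whole.

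Other extracellular nucleotide enzymes did not pass the test. Of 13, 7 were tested, 0 were called by edgeR, DESeq2 or limma-voom, and 1 had an unadjusted p under 0.05 in the edgeR fit. That gene was Cd38, which consumes extracellular NAD, at 30.7 CPM in control and 26.4 CPM with So(d18:1) (log2 difference -0.23, adjusted p = 0.0710). Entpd2, Entpd3, Entpd8, Enpp2, Enpp3 and Alpl were too low to test. Of the 6 relatives of acid phosphatase tested, 1 was called, where edgeR called 8.94% of all genes. Acp2, the lysosomal acid phosphatase, fell from 292 ± 3.35 to 252 ± 8.38 CPM (SD, n = 4 each, log2 difference -0.21, SE 0.041, edgeR adjusted p = 0.00184), and all its treated libraries lay below all control libraries. Acp5, the tartrate-resistant phosphatase of osteoclasts and macrophages, was at -0.31 with an edgeR adjusted p of 0.0510 and was called by DESeq2. Of the 5 tested intracellular ENTPD enzymes, Cant1 included, 0 were called by edgeR, DESeq2 or limma-voom and 0 had an unadjusted p under 0.05 in the edgeR fit, with log2 differences from -0.045 to 0.089.

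Inside the cell, 14 of 17 enzymes of adenosine and AMP handling were tested, of which 1 was called higher and 2 lower (3.87% and 5.07% of all genes). Ahcy, which splits S-adenosylhomocysteine into adenosine and homocysteine, rose from 16.4 ± 1.39 to 21.7 ± 2.70 CPM (SD, n = 4 each, log2 difference 0.41, SE 0.090, edgeR adjusted p = 0.00511). It shares 68.7% of its 50-base words with other genes, so this value is uncertain. Ampd3, an AMP deaminase, fell from 72.0 ± 2.76 to 59.7 ± 2.79 CPM (log2 difference -0.27, adjusted p = 0.00133). Hprt, of purine salvage, fell from 127 to 113 CPM (log2 difference -0.18, adjusted p = 0.0138), and missed the threshold without treated replicate 1 (adjusted p = 0.0538). Adk, the adenosine kinase, missed the threshold at a log2 difference of 0.33 (adjusted p = 0.0578), although its lowest treated library stood above its highest control library, and was called by DESeq2. Of 4 nucleoside transporters tested, 1 was called by edgeR, where 8.94% of all genes were. Slc29a1 (ENT1), which equilibrates adenosine across the plasma membrane, fell from 41.6 ± 3.48 to 33.6 ± 1.84 CPM (SD, n = 4 each, log2 difference -0.31, SE 0.066, edgeR adjusted p = 0.00443), and the other 3 did not pass in edgeR. Slc29a3, the lysosomal transporter, was at -0.12 (adjusted p = 0.0719), with groups that did not overlap, and was called by DESeq2.

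Among the receptors, 1 of the 6 other P2X and P1 genes could be tested. P2rx1 was at 1.86 CPM in control and 1.52 CPM with So(d18:1) (adjusted p = 0.452). The P2Y receptors, which are G protein-coupled, held 3 called genes among 7 tested, all of them higher, where 3.87% of all genes were called higher. The 2 with negative log2 differences, P2ry1 (-0.40) and P2ry2 (-0.34), were not called. P2ry14, a receptor for UDP-glucose, had 9.72, 9.19, 6.96 and 7.76 CPM in control and 10.9, 10.4, 13.4 and 12.4 CPM in treated libraries (log2 difference 0.49, SE 0.12, edgeR adjusted p = 0.0109). P2ry13, an ADP receptor, rose from 7.50 ± 0.949 to 9.85 ± 0.946 CPM (SD, n = 4 each, log2 difference 0.39, edgeR adjusted p = 0.0348), with 1 control library above the lowest treated one. P2ry10b, a copy of the lysophosphatidylserine receptor gene P2ry10, rose from 8.75 ± 0.351 to 11.1 ± 0.705 CPM (log2 difference 0.35, adjusted p = 0.0259). P2ry6, the UDP receptor, was at 212 and 213 CPM. Of 8 channel genes of ATP release tested, 1 was called, where edgeR called 8.94% of all genes. Lrrc8d, a subunit of the volume-regulated anion channel, was at a log2 difference of 0.16 (65.2 to 72.7 CPM, edgeR adjusted p = 0.0489). It lost the call with limma-voom, DESeq2 size factors, no filter or a minimum of 10 counts in every library, and whenever any 1 library was left out (adjusted p from 0.0528 to 0.153). P2ry13 lost it without any library but control replicate 1 or treated replicate 2 (up to 0.105, without treated replicate 4), and P2ry10b without control replicate 4 or treated replicates 2 or 3 (up to 0.0912).

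**Figure D4:**
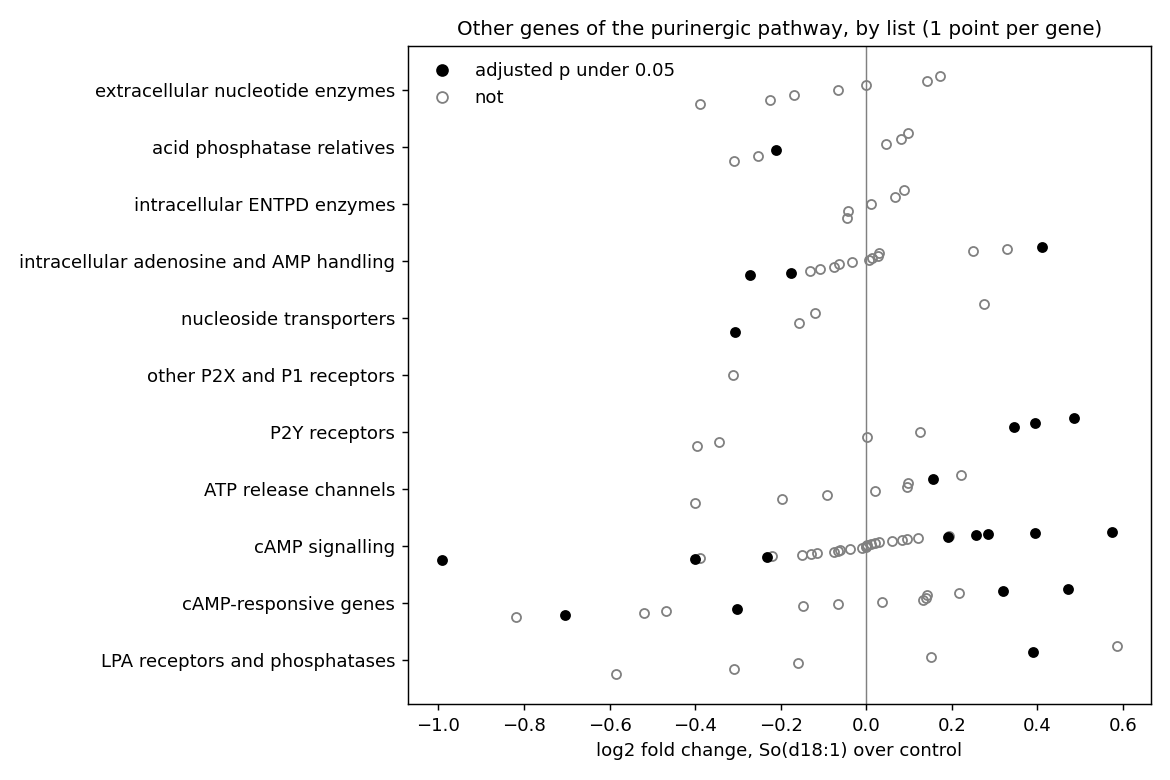
Log2 fold change of So(d18:1) over control (x axis) for the 101 tested pathway genes outside the set of 10, in 11 lists (y axis), 1 point per gene. Filled points had an adjusted p under 0.05 over all genes, and there were 13 to the right of 0 and 9 to the left. Every point lies within 1 log2 unit of 0.

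Downstream of the adenosine receptors, 29 of 36 genes of cAMP signalling were tested, of which 5 were called higher and 3 lower (3.87% and 5.07% of all genes), with a median log2 difference of 0.0005. Over the 29 tested genes, 16 log2 differences were positive and 13 negative. Of the 5 called higher, 4 were phosphodiesterases, which degrade cAMP. Pde4d rose from 7.88 to 11.7 CPM (log2 difference 0.58, adjusted p = 0.00182), Pde7b from 20.4 to 26.9 CPM (0.40, adjusted p = 0.00295), Pde4b from 87.5 to 107 CPM (0.29, adjusted p = 0.00312) and Pde3b from 171 to 204 CPM (0.26, adjusted p = 9.14e-04). Prkar2b, a regulatory subunit of protein kinase A, was at 0.19 (adjusted p = 0.0366). Pde7a went the other way, from 39.4 to 33.5 CPM (-0.23, adjusted p = 0.0188). Rapgef3 (EPAC1), a cAMP-regulated exchange factor, fell from 2.48 to 1.25 CPM (-0.99, SE 0.27, adjusted p = 0.0254), and the adenylyl cyclase Adcy3 from 9.48 to 7.19 CPM (-0.40, adjusted p = 0.0389). Both lie over other genes, Rapgef3 over 2 antisense transcripts and Adcy3 over Cenpo, and their counts could not be separated from these if strand was not used. Rapgef3 missed the threshold without control replicate 3 (-0.69, adjusted p = 0.122) or treated replicates 2 or 4. Adcy3 missed it without control replicates 3 or 4 or treated replicates 1, 2 or 4 (up to 0.131), and Pde7a without replicate 1 of either group or treated replicate 4 (up to 0.0654). Prkar2b kept it only without control replicate 4 or treated replicate 3 (otherwise up to 0.128). The other 4 called phosphodiesterases were called in every such fit.

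Genes that cAMP is known to induce did not move one way. Of 14 tested, 2 were called higher and 2 lower (3.87% and 5.07% of all genes). In the edgeR fit 10 of them had an unadjusted p under 0.05, as did 3393 of the 14514 genes. Their log2 differences ran from -0.82 to 0.47, with 7 positive and 7 negative. Thbs1, thrombospondin, rose from 4188 to 5806 CPM (log2 difference 0.47, SE 0.044, adjusted p = 3.69e-07) and the nuclear receptor Nr4a2 was at 0.32 (adjusted p = 0.0373). Its relative Nr4a1 fell from 40.1 to 24.7 CPM (-0.70, SE 0.13, adjusted p = 0.0102), and the kinase Sik1 fell from 25.8 to 21.0 CPM (-0.30, adjusted p = 0.0215). Leaving out a library ended the call of Sik1 for control replicate 3 and treated replicates 2 and 4 (adjusted p up to 0.0919), and of Nr4a1 for treated replicate 4 (0.0544). Nr4a2 kept its call only without control replicates 2 or 3 (otherwise up to 0.121). Of the receptors and phosphatases for LPA, the other substrate named above for prostatic acid phosphatase, 6 were tested. The log2 differences of these 6 ran from -0.58 to 0.59, and 3 of the 6 had an unadjusted p under 0.05 in the edgeR fit. At the adjusted threshold 1 was called, where edgeR called 8.94% of all genes. Lpar6 had 205, 206, 207 and 211 CPM in control and 271, 261, 265 and 290 CPM in treated libraries (log2 difference 0.39, SE 0.043, edgeR adjusted p = 3.37e-06). It overlaps an exon of Rb1 on the other strand. Acp2, Ampd3, Slc29a1, Lrrc8d, Pde7a and Thbs1 also overlap an exon of another gene, and the strand setting of the counting was not given in the sources used here.

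The genes beside Acpp on chromosome 9 were Dnajc13, an endosomal co-chaperone 25320 bases away, and Cpne4, 209537 bases away on the other side. Dnajc13 went from 418 to 374 CPM (log2 difference -0.16, SE 0.042, edgeR adjusted p = 0.0186), the direction opposite to Acpp, and Cpne4 had 0 counts in every library. Beside Enpp1, Ccn2 was at -0.38 (adjusted p = 0.384) and Enpp3, of the same family, was too low to test.

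The genes whose levels over the 8 libraries were most like those of Acpp were found among 11556 genes by the root mean square difference of log2 CPM after centring each gene on its mean. The nearest were Jaml at 0.216, Ahrr at 0.220, Ly6a at 0.229, Gpr141 at 0.260 and Vcan at 0.277 log2 units. All 5 were higher with So(d18:1): Ahrr, the repressor of the aryl hydrocarbon receptor, went from 33.7 to 99.0 CPM, Vcan, a matrix proteoglycan, from 44.8 to 147 CPM, and Gpr141, an orphan receptor, from 41.5 to 119 CPM. Ly6a went from 20.5 to 61.1 CPM and Jaml from 1.14 to 3.62 CPM. Ly6a shares 19.0% and Jaml 11.3% of 50-base words with other genes. With groups this far apart, the measure mostly reflects the size of the difference between them.

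**Figure D5:**
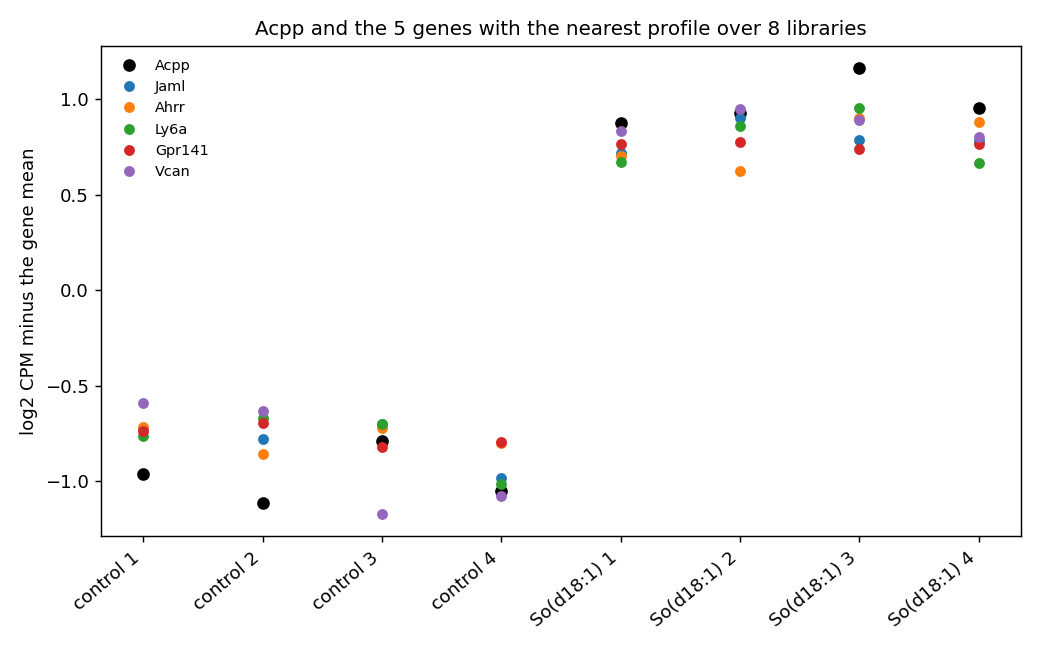
Log2 CPM minus the mean of the gene (y axis) in each of the 8 libraries (x axis) for Acpp and the 5 genes nearest to it. All 6 genes lay below 0 in the 4 control libraries and above 0 in the 4 So(d18:1) libraries.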

How the data were processed

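Counts per gene for 8 poly(A) RNA-seq libraries (4 control, 4 So(d18:1)) were deposited by the authors with a gene length for each gene and no normalization. Per the labels, reads were trimmed with Trim Galore 0.6.7, aligned to mm10 with HISAT2 2.2.1 and counted with featureCounts 2.0.1. The treatment of reads that match several genes was not given in the sources used here.

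Gene names came from GENCODE annotation of GRCm38, and genes without a name there kept 0.169% to 0.325% of counts. Low genes were removed with filterByExpr, and edgeR 4.0.16 (TMM scaling, quasi-likelihood test, Benjamini-Hochberg adjustment over 14514 genes, threshold 0.05) compared the groups with no covariate in R 4.3.3. CPM are counts per 1000000 of the TMM-scaled library size, and log2 CPM add a prior count of 2. Intervals are 95% intervals of the fit. DESeq2 1.42.0, limma 3.58.1 (voom), other scalings and filters, a replicate block and leaving out each library were alternatives. In simulated counts, 193 of the 14309 genes tested had a known change. Of these, 55.3% of genes changed by 0.5 on the log2 scale and 88.9% of those changed by 1 were called. Of the unchanged genes, 15 were called. The real contrast had 1298 genes called, more than the simulation changed, so these shares need not hold for it. Shared sequence was measured as the share of 50-base words of the transcripts of a gene that occur in another gene.

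The 10 genes, the pathway lists and the markers were chosen with earlier results of these data known. Genes named outside the set of 10 were mainly those called in a list and the highest of a list with none called. The 5 nearest to Acpp and the neighbours of Acpp and Enpp1 were named too. Nr4a3 and Lpar1 were named for passing the study's cut-off, and some extracellular enzymes for being too low to test. Genes that overlap a named gene were named for that overlap. Acp5, Adk, Slc29a3, P2ry1, P2ry2, P2ry6 and the single marker genes were named after their values were seen.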

Additional observations from a re-analysis of the deposited data

Results flagged for a closer look

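In 3 of the 64 groups of 4 libraries examined, 1 library stood apart from the other 3 by more than the 95% limit of Dixon's test, where chance alone gives about 1 in 20 groups. All 3 were So(d18:1) replicate 2. For Ada it was at 2.01 log2 CPM against 1.83 to 1.86 in the others (a gap of 0.875 of the range of the group). For Ahcy it was at 4.69 against 4.33 to 4.38 log2 CPM (0.848 of the range). For Rapgef3 it was at -0.22 against 0.49 to 0.63 log2 CPM (0.841 of the range). No cause was tested.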

How the results depend on the processing

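Acpp kept a log2 difference between 1.90 and 2.03 and Enpp1 one between -0.73 and -0.61 under the 15 refitted alternatives, and both were called in each. The extremes for both genes came from fits without 1 library. All of these fits reuse the libraries on which the genes were chosen, so they describe only the effect of processing and of single libraries. Leaving out 1 library gave 815 to 1370 genes called, 2 to 3 of the set of 10 (3 without So(d18:1) replicate 4, when Entpd1 passed) and 13 to 24 pathway genes. The lowest counts were 815 genes without So(d18:1) replicate 2 and 13 pathway genes without So(d18:1) replicate 4, and fewer libraries enter these fits. Under the study's cut-off, 564 genes passed, 3.89% of those tested. Of the 101 pathway genes tested, 4 passed (Rapgef3, Nr4a1, Nr4a3 and Lpar1). Deviations of same-numbered libraries correlated weakly (from -0.0035 to 0.10), and only numbers 2 and 3 correlated best with their own number. A replicate block called 1784 genes, where the main fit called 1298. That block fit called 2 of the 10 and 26 pathway genes. Whether same-numbered libraries were paired was not settled by these values. Among the 8 uncalled genes of the 10, Adora3 (from -0.16 to 0.08) and P2rx7 (from -0.052 to 0.0015) changed sign between alternatives, and the other 6 did not. Of 330 values of called pathway genes under alternatives, 49 lost the call and 0 turned direction. Lrrc8d lost it in 8 of 8 fits without 1 library, P2ry13, Prkar2b and Nr4a2 in 6, Adcy3 in 5 and P2ry10b, Rapgef3, Pde7a and Sik1 in 3. Adora2a, at 5 to 19 counts, was limited by depth and was not tested when 10 counts were required in every library.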
